A study of Mus musculus with 24 samples.

Results

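H3K4me1 peaks were compared between cultures without and with a doxycycline-induced hairpin RNA against Spi1. The members were all H3K4me1 peaks on assembled mm10 chromosomes, 119362 in the untreated list and 101388 in the list after doxycycline. These 220750 peaks were part of 272993 peaks in the 4 lists used, and the other 2 lists held H3K27ac peaks of the same conditions. The cells were leukaemic erythroid cells from bone marrow that carry a Spi1 transgene (TgSpi1) and so overexpress SPI1 in both groups, and both groups grew in medium with erythropoietin (EPO). The untreated group received no doxycycline, and the treated group received it for 48 h, which switches on the hairpin. There was 1 H3K4me1 list per condition, so no difference below has a replicate error or a test, and each is a difference between 2 lists. No group received doxycycline without the hairpin, so effects of the drug, of hairpin expression and of lower SPI1 cannot be told apart. How far SPI1 was lowered was not measured by these lists, and the depth behind each list is unknown. In these bulk cultures, a change in the share of cells of 1 kind and a change within each cell cannot be told apart.

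H3K4me1 is laid down mainly by the methyltransferases KMT2C and KMT2D and marks enhancers, whether they are active or only primed, while active enhancers and promoters also carry H3K27ac. At active start sites H3K4me1 typically flanks a central gap, where H3K4me3 takes its place. SPI1 (PU.1) is an ETS family transcription factor that opens myeloid and B cell enhancers, and it counteracts GATA1, the factor that drives red cell differentiation.

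Some annotated starts had H3K4me1 over all of the 250 bases before them in 1 list and over none in the other. Of the 104 genes singled out by rule, 6 had such a start, and the bases outside the annotated gene are shown for 4 of them (RefSeq, GRCm38.p6). They are shown as examples, 2 per direction, of a promoter under the mark in 1 condition only. For Acsm5 and Traf1 part of the 250 bases lies inside the annotated gene and is left out, which at Tmem176b leaves nothing to show. Gzmb also met the rule and is not shown, so that each direction has 2 sequences. Capitals mark GAGGAA, an ETS core, which was searched together with its reverse TTCCTC.
Acsm5, chr7:119526015-119526130, plus strand: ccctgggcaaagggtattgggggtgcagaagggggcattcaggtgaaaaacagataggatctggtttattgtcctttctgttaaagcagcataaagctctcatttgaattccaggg
Gabarapl2, chr8:111940453-111940702, plus strand: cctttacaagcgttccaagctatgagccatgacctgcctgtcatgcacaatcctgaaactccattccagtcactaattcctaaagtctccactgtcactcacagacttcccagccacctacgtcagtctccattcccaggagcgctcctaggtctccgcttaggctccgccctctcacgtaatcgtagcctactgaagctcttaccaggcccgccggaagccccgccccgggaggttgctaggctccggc
Tnfsf14, chr17:57194182-57194431, minus strand: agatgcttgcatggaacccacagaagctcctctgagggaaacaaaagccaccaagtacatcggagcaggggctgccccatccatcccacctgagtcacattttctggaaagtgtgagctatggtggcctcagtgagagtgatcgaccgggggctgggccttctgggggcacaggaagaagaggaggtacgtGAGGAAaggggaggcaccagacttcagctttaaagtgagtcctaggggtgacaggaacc
Traf1, chr2:34961813-34962022, minus strand: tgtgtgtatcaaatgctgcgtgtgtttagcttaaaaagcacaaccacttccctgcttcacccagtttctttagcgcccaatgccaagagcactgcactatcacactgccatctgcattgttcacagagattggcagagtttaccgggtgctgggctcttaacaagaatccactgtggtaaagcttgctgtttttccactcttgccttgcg
Acsm5, which encodes a mitochondrial acyl-CoA synthetase, and Gabarapl2, an ATG8 family autophagy protein, had these bases covered in the treated list. Acsm5 lay under a treated peak of 4953 bp, where the untreated list had a peak of 753 bp that ended before the sequence shown. At Gabarapl2 the untreated list had peaks of 1803 and 953 bp on either side of a gap, and the treated list had a single peak of 3803 bp across it. Summed within 5 kb of its ends, Gabarapl2 nevertheless had less H3K4me1 in the treated list, 5959 bp against 8515 bp. Tnfsf14, a ligand of the tumour necrosis factor family, and Traf1, an adaptor of that family's receptors, had the bases covered in the untreated list. The untreated peaks were 1703 bp wide at Tnfsf14 and 1003 bp at Traf1, and neither overlapped a treated peak. Only the Tnfsf14 sequence held GAGGAA or TTCCTC, letters found in 22.3% of all 21238 promoter sequences of 250 bases, and none of the 4 held the GATA letters AGATAA or TTATCT, found in 8.81%.

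The treated list had fewer peaks, and they were broader. Among peaks under 500 bp it held 11113 against 29742 in the untreated list, a ratio of 0.374. Between 500 bp and 2 kb the numbers were close, with ratios of 0.961 and 0.977. The ratio was 1.22 for peaks of 5 to 10 kb, 1.49 for 10 to 20 kb and 1.89 above 20 kb, where 185 treated peaks stood against 98 untreated ones. Peaks of at least 5 kb held 24.3% of the untreated and 30.7% of the treated bp. The lists also began at different limits, since the narrowest peak was 203 bp in the untreated and 303 bp in the treated list, and the lowest deposited score was 0.972 and 1.74. Among peaks of at least 500 bp the treated list was no longer the shorter one, with 90275 peaks against 89620. The part of calling depth in these differences was not tested.

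**Figure D1:**
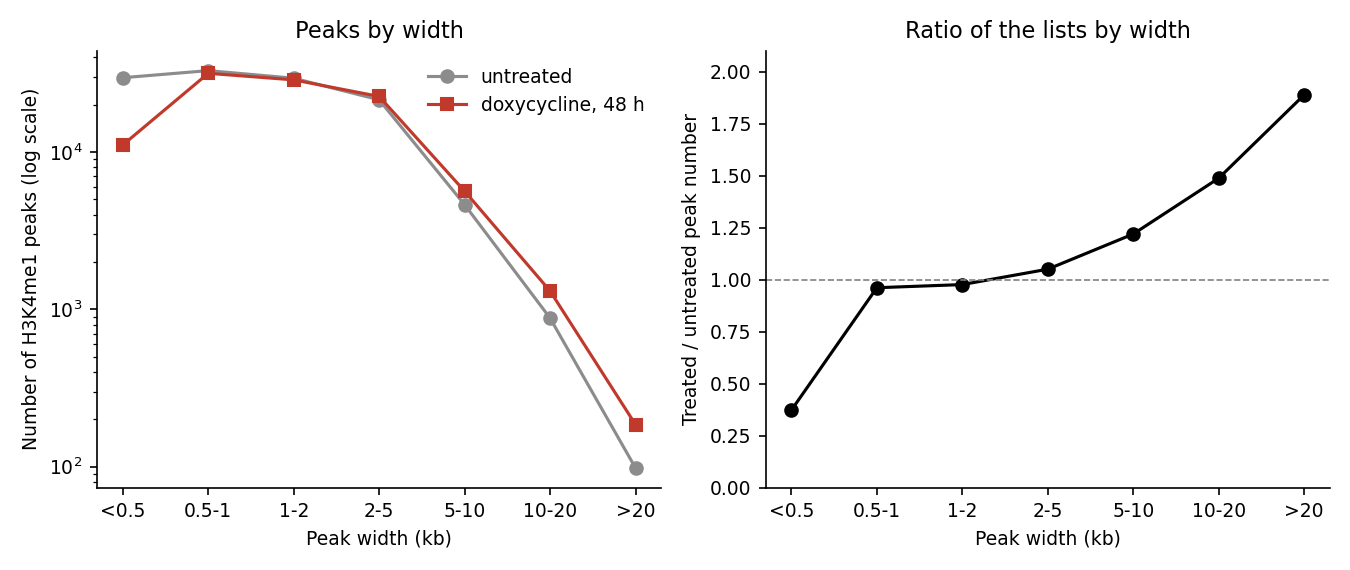
Number of H3K4me1 peaks by width in kb (left, log scale) and the ratio of treated to untreated peak number in each width class (right, linear scale), 1 list per condition. The ratio is 0.374 under 0.5 kb and 1.89 above 20 kb, and the dashed line marks equal numbers.

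Treated peaks often joined neighbouring untreated ones. A treated peak overlapped 2 or more untreated peaks in 10020 cases, 9.88% of the treated list (exact Clopper-Pearson 95% interval 9.70% to 10.1%, counting error only). The reverse, an untreated peak overlapping 2 or more treated ones, was seen 4584 times, 3.84% of the untreated list (3.73% to 3.95%). Peaks overlapping at least 4 of the other list numbered 394 and 55. Another 62581 peaks paired one to one, with median widths of 1253 bp untreated and 1353 bp treated. Of these pairs 59.4% were wider in the treated list and 36.1% narrower, and the middle 50% of width changes lay between -150 and 400 bp. In all, 149 Mb were covered in both lists, 35.2 Mb only in untreated and 46.7 Mb only in treated peaks.

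The treated peak that fused the most untreated ones lay in Sptb, which encodes the beta spectrin of the red cell skeleton. It spanned 49403 bp (chr12:76659549-76708951) and covered 13 untreated peaks that together held 43939 bp, the widest of them 11203 bp. A treated peak of 55153 bp in Epb41, which encodes protein 4.1 of the same skeleton, covered 7 untreated peaks. These together held 52471 bp, and the widest was already 33553 bp. Other fusions of 7 or 8 peaks lay in Cpeb4, Frs2, Ssh1, Rusf1 and across Hipk2 and Tbxas1. Cpeb4 encodes an RNA-binding translation regulator of late red cell development. The untreated peaks broken into the most treated ones lay in Spin1 (7 treated peaks), then Nfia, Ptpre, Rhoh and Samsn1 (6 each). The treated peaks together held less than the untreated peak at Spin1 (14221 against 18903 bp) and Ptpre (35268 against 41453 bp). They held about as much or more at Rhoh (22518 against 22553 bp), Nfia (64018 against 62203 bp) and Samsn1 (22668 against 16553 bp). Rhoh and Samsn1 encode signalling proteins of blood cells, and Nfia a transcription factor with a role in the erythroid lineage.

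The domains with the highest scores included regulators of the lineage, and some had almost the same width in both lists. Bcl11a, which encodes a repressor of fetal globin genes, lay under peaks of 81103 bp untreated and 80803 bp treated. Zfpm1, which encodes the GATA1 partner FOG1, lay under peaks of 48153 and 49703 bp. Pip4k2a, a lipid kinase gene, lay under a narrower peak in the treated list, with 48803 and 41103 bp, and 4 of the 10 untreated peaks with the highest scores, in Ptpre, Rap1a, Nfia and Emilin2, overlapped 5 or 6 treated peaks each. A domain between genes spanned 40953 bp untreated and 87503 bp treated, and in the treated list it had the highest score of all peaks. Its nearest protein-coding gene was that of the growth regulator Myc, 111438 bp away in the untreated and 97088 bp away in the treated list.

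Peaks found in 1 condition only were narrow, weak and almost without H3K27ac. The 31842 untreated-only peaks had a median width of 453 bp and the 21054 treated-only peaks of 553 bp, against 1253 and 1503 bp for shared peaks. H3K27ac of the same condition overlapped 0.512% of untreated-only peaks (0.436% to 0.597%) and 30.5% of shared untreated peaks. In the treated list the shares were 0.394% (0.314% to 0.488%) and 29.1%. The gap remained when peaks of like width were compared. Between 1 and 2 kb, H3K27ac overlapped 26.2% of shared and 1.58% of untreated-only peaks, and 20.8% of shared and 0.377% of treated-only peaks. Within the better 50% of each list by score, where a peak counts as single also when its partner falls in the weaker 50%, the single-condition shares were 8.19% and 8.37%.

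**Figure D2:**
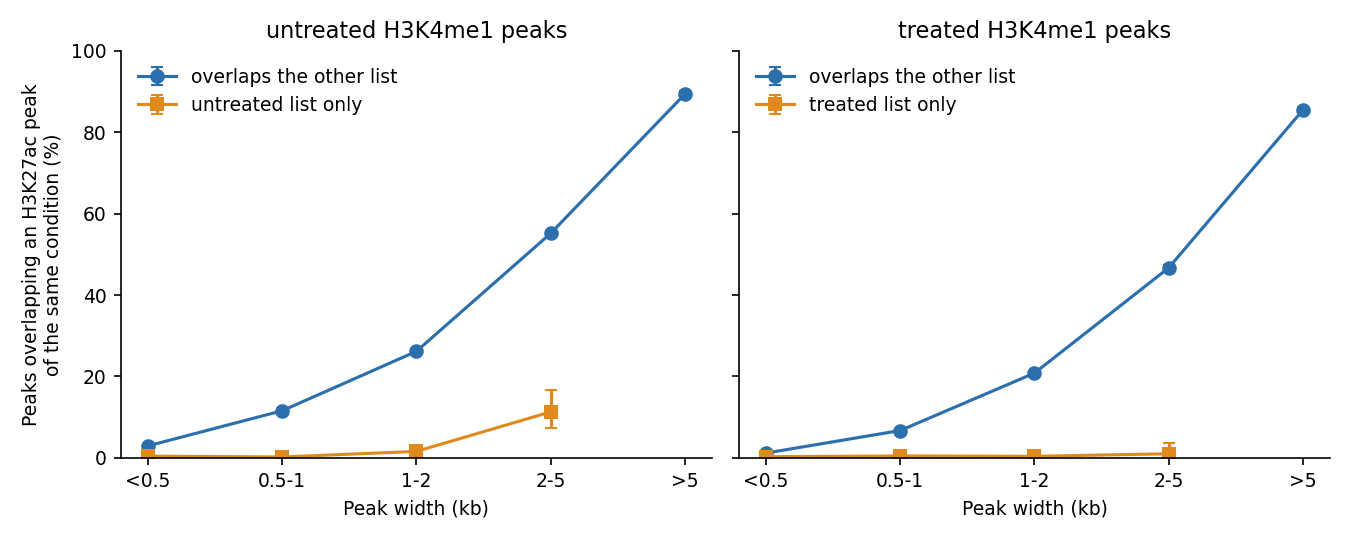
Percent of H3K4me1 peaks that overlap an H3K27ac peak of the same condition, by peak width in kb, for peaks that overlap the other H3K4me1 list and for peaks that do not; bars are exact 95% intervals and classes of under 20 peaks are left out. At 2 to 5 kb the untreated list reads 55.1% for shared and 11.3% for single peaks, and the treated list 46.7% and 1%.

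Nearly all H3K27ac peaks overlapped an H3K4me1 peak of the same condition by at least 1 bp, 99.0% of untreated and 99.5% of treated ones. H3K27ac peaks present in 1 condition mostly overlapped H3K4me1 that was present in both. Of 7928 H3K27ac peaks found only in the untreated list, 96.4% overlapped a treated H3K4me1 peak. Of 3983 found only in the treated list, 94.4% overlapped an untreated H3K4me1 peak. Single-condition H3K4me1 peaks lay away from starts, with 2.37% of untreated-only and 2.15% of treated-only centres within 2 kb of an annotated start, against 13.8% and 13.7% of shared ones. Among peaks under 1 kb wide these shares were 2.38% against 10.04% in the untreated list and 2.19% against 7.55% in the treated list.

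The strongest single-condition peaks were few and ranked well below the top of their lists. The untreated-only peak with the highest score was 7703 bp wide, carried H3K27ac and lay 37806 bp from Abhd17c, and 1.52% of the untreated list scored at least as high. Others of the leading 5 lay in Ralgapa1, Zmiz1 and Plekha2. Of the 5 leading treated-only peaks, 1 lay at the end of Acsm5, 1 lay 1489 bp from its neighbour Acsm2, 1 in Mgll, a monoacylglycerol lipase gene, 1 at 3862 bp from Cmpk2 and 1 at 225735 bp from Ccser2. None of the 5 carried H3K27ac.

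Among annotated starts of 17492 protein-coding genes, those with H3K27ac mostly lay in the usual gap flanked by peaks, 75.8% untreated and 70.4% treated. Without H3K27ac these shares were 7.97% and 4.03%. Gaps were closed more often in the treated list. The start base itself was covered at 18.3% of starts in the untreated list (17.7% to 18.8%) and at 21.4% in the treated list (20.8% to 22.0%). The largest class was bare, with no peak within 2 kb, at 40.0% and 40.8%. A gap with a peak within 2 kb on both sides was seen at 35.4% and 32.4%. Of 6194 starts in such a gap in the untreated list, 780 were covered in the treated list, while 228 of the 3193 covered starts had a gap there. Over all starts, 963 were covered in the treated list alone, 5.51%, and 417 in the untreated list alone, 2.38%. At starts that carried H3K27ac, coverage within 1 kb was lowest 50 bp after the start, at 21.8% untreated and 27.4% treated. It reached 80.1% and 87.8% before the start, and more after the start, 85.5% and 90.5%. Starts without H3K27ac were bare in 67.1% and 71.1% of cases. When peaks within 1 kb were merged, 36.7% and 41.7% of starts were covered.

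**Figure D3:**
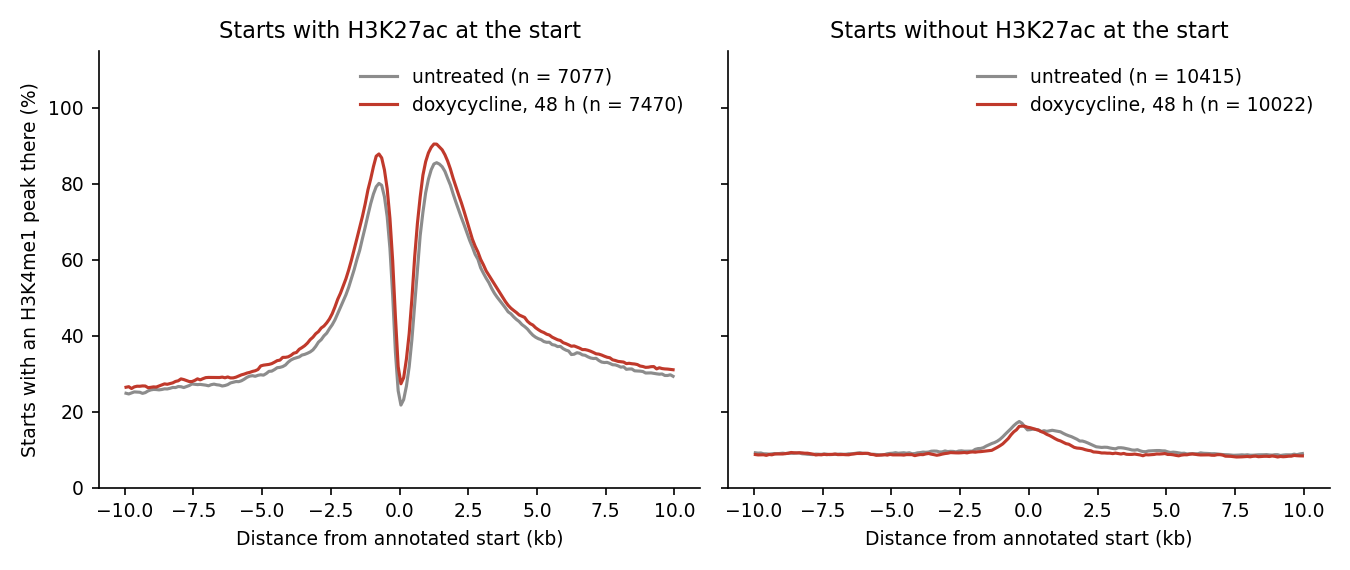
Percent of annotated starts under an H3K4me1 peak at each distance from the start in kb, on the gene's strand, for starts with (left) and without (right) H3K27ac at the start in the same condition. With H3K27ac, the treated list reads above the untreated list on both shoulders, 87.8% against 80.1% before the start, and in the gap, 27.4% against 21.8%.

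Named genes on both sides of this change came from several gene groups. Starts covered in the treated list alone included those of Runx1, a blood transcription factor, Epb41 and Slc2a1, the glucose transporter gene, and of the immediate early genes Fos and Jun. Starts covered in the untreated list alone included the Fc receptor genes Fcgr3 and Fcer1g and Ncf1, a subunit of the phagocyte oxidase. Of the myeloid effector and receptor genes with a start, 5 of 30 were covered only in untreated and 1 only in treated cultures, against 2.38% and 5.51% of all starts. Of the red cell membrane and surface genes 4 of 16 were covered only in treated and 1 only in untreated cultures, against 5.51% and 2.38%. Both lists were picked out of 22. Among interferon response genes 3 of 22 were covered only in treated and 2 only in untreated cultures, and among cytokine signalling genes 2 and 3 of 31. Nothing is read from these small counts. GAGGAA or TTCCTC stood in the 250 bases before 24.2% of starts covered in the treated list alone and 25.4% of those covered in the untreated list alone, against 22.1% of all starts. AGATAA or TTATCT stood before 7.58% and 11.03%, against 9.10%.

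To describe genes, the bp under H3K4me1 peaks within 5 kb of either gene end were summed. A gene was called longer or shorter when its sums differed by at least 1.5 times and 1000 bp. Of 15489 genes with a peak in either list, 1070 were called longer in the treated list, 6.91%, and 590 shorter, 3.81%. The median difference was 347 bp, with 62.9% of genes longer and 36.2% shorter by any amount. This lean came with the larger total of the treated list. Scaling the treated lengths to the untreated total took a median of 331 bp from the treated sum of a gene. The median difference was then 28.5 bp, and the split was 51.4% longer and 48.6% shorter. With the threshold at 2 times, 414 genes were called longer and 314 shorter, and in the better 50% of each list by score 1132 were called shorter. Most called genes had no H3K27ac call, and where there was 1 it mostly went the same way. Of 645 genes called longer that had H3K27ac, 131 also had longer H3K27ac by the same rule and 3 shorter, and of 228 called shorter, 45 had shorter and 0 longer H3K27ac. These same-way calls were 20.3% and 19.7% of the called genes with H3K27ac. Over all genes with H3K27ac, 4.98% were called longer and 5.16% shorter. Of the genes with longer H3K27ac 77.5% had no H3K4me1 call, and of those with shorter H3K27ac 92.0% had none.

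Globin genes had longer H3K4me1 in the treated list at all 10 members, against 62.9% of all genes. Of the 10, 4 were called longer, against 6.91% of all genes, and none shorter, with a median difference of 3025 bp. Globin genes encode the protein chains of haemoglobin. Hba-a2, an adult alpha globin gene, had 1759 bp untreated and 8013 bp treated. A treated peak of 11853 bp (chr11:32284049-32295901) ran from within Hba-a1 towards Hba-a2, joined 4 untreated peaks and stopped short of the Hba-a2 start, which stayed in a gap. Hbq1b had 5194 and 10352 bp, Hbq1a 1709 and 6439 bp, and the embryonic gene Hba-x 3521 and 6624 bp. The untreated H3K27ac list had no peak in the windows of these 4 genes, while the treated one covered 3156 bp at Hba-a2, 5858 bp at Hbq1b, 753 bp at Hbq1a and 1918 bp at Hba-x. The 4 called genes all lie in the alpha cluster, where windows share peaks and the copies Hba-a1 and Hba-a2, and Hbq1a and Hbq1b, are nearly identical, so they are not independent cases. At the beta cluster, Hbb-bs had 6059 and 9006 bp, Hbb-y 6619 and 9863 bp, and Hbb-bt 9534 and 9684 bp, and none was called.

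Haem synthesis genes were longer at 11 of 13 (62.9% over all genes), 3 of them called (6.91% over all genes), with a median of 1903 bp. Alas2, the red cell form of the first enzyme of the pathway, had 9729 bp untreated and 14629 bp treated. Its treated peak of 15153 bp joined 6 untreated peaks, and H3K27ac in its windows covered 1003 and 4909 bp. Alas1, the form of the same enzyme used in other tissues, went the other way with 7756 and 6156 bp and was not called. Uros, an enzyme of the middle of the pathway, had 4368 and 7544 bp, and Slc25a37, which encodes the mitochondrial iron carrier mitoferrin, had 606 and 2509 bp. Alad had 15316 and 19440 bp and was not called. Alas2 passed the threshold of 1.5 times only narrowly. With the threshold at 2 times Alas2 and Uros were no longer called, and of the 3 only Slc25a37 remained.

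Red cell membrane and surface genes were longer at 23 of 24, against 62.9% of all genes. Of the 24, 4 were called longer, against 6.91% of all genes, and none shorter, with a median of 2025 bp. Slc4a1, the anion exchanger band 3, had 5709 bp untreated and 11086 bp treated, and a treated peak of 17503 bp there joined 4 untreated peaks. Epb42, which links band 3 to the skeleton, had 3759 and 7309 bp. Trim10, a RING protein of maturing red cells, had 6618 and 11768 bp, and Ank1, ankyrin, 2510 and 4460 bp. H3K27ac in these windows was also longer in the treated list, with 0 and 1953 bp at Slc4a1, 603 and 2353 bp at Epb42 and 2006 and 5309 bp at Trim10. A treated peak that joined untreated ones touched 19 of the 24 genes, or the 5 kb beside them, against 43% of all genes, but the count was 15 of 17 for Polycomb genes and 27 of 38 for cytokine signalling genes, so it does not set the membrane genes apart. With the threshold at 2 times none of the 24 was called.

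**Figure D4:**
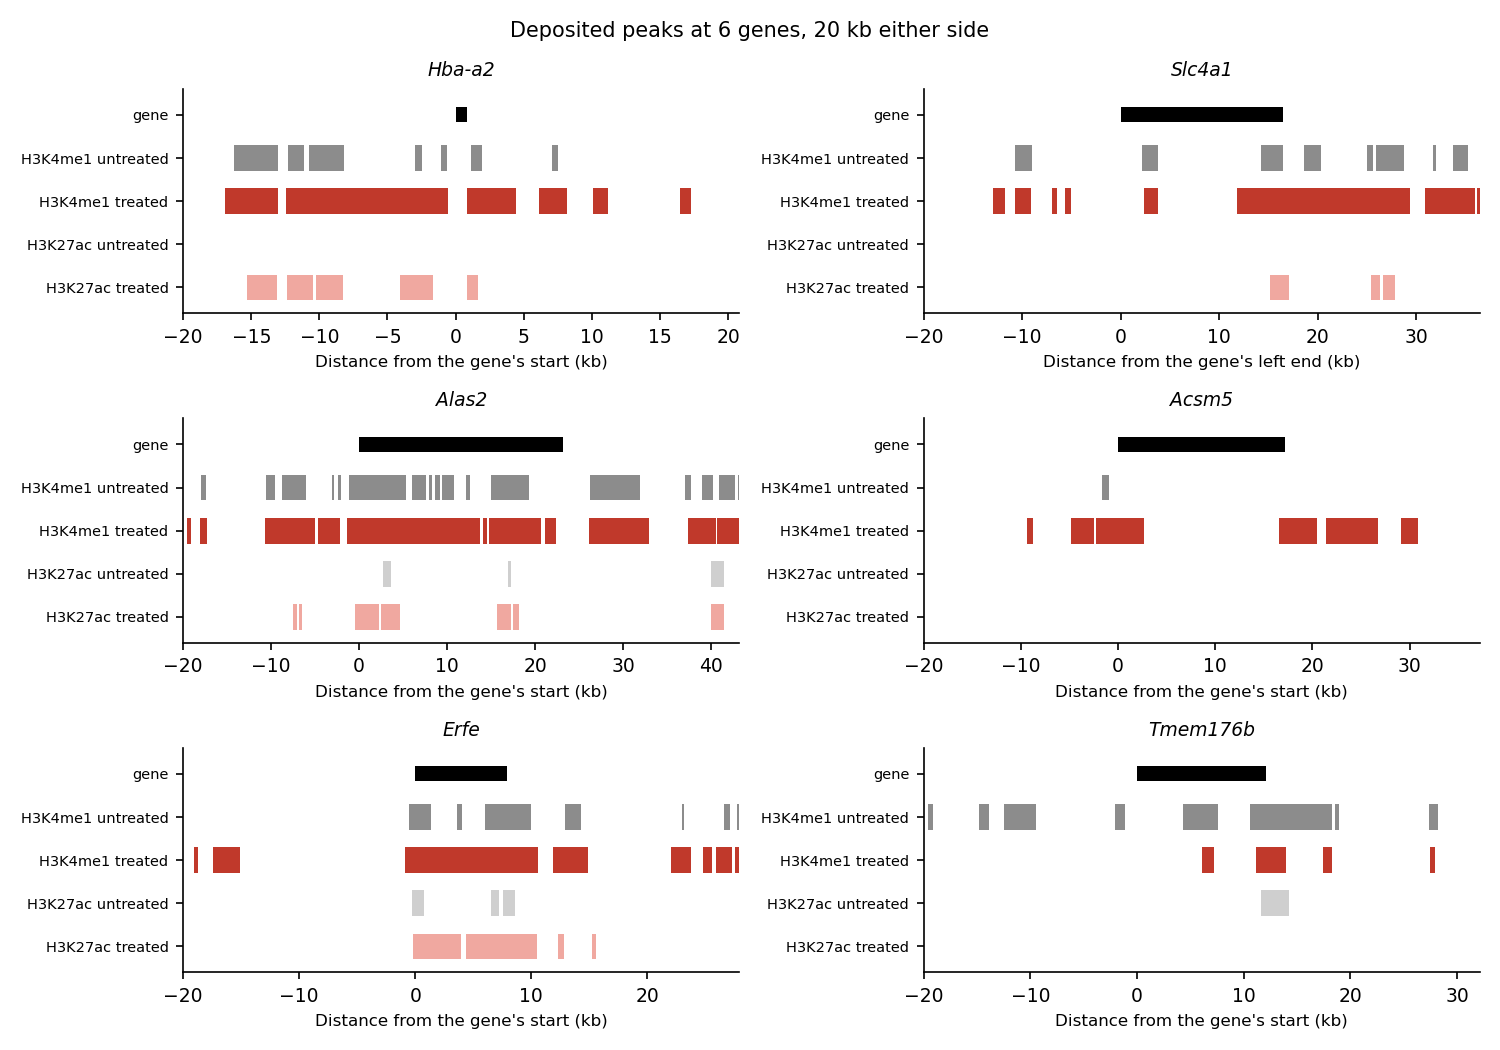
Deposited peaks of H3K4me1 and H3K27ac in both conditions at 6 genes, by distance in kb from the gene's start or, where no start was used, its left end, with 20 kb on either side; bars are peaks, black bars the annotated gene, and peaks beyond the frame are cut. Treated H3K4me1 peaks join several untreated ones at Hba-a2, Slc4a1, Alas2 and Erfe, stand where the untreated list has a single peak of 753 bp at Acsm5, and are fewer and shorter at Tmem176b.

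The other erythroid groups had 1 call each, near the 6.91% over all genes, and at 2 times none of them had a gene called longer. In windows of 2 kb the calls among erythroid transcription factors and iron handling genes were also gone, and the former was gone after scaling too. Erythroid transcription factors were longer at 16 of 18 with a median of 1132 bp, but only Sox6, a partner of BCL11A, was called, with 3606 and 5635 bp. Gata1 had 14872 and 16857 bp, Klf1 9252 and 10519 bp, and Tal1 7285 and 8834 bp. Among 15 iron handling genes, only Erfe was called longer. It encodes erythroferrone, the hormone by which red cell precursors lower hepcidin. It had 6359 bp untreated and 12522 bp treated, with 2859 and 10859 bp of H3K27ac, and a treated peak of 11453 bp joined 3 untreated ones. Hfe, an iron sensor gene, had 11236 and 7874 bp and was not called. Genes for organelle clearance and nuclear condensation were longer at 9 of 15, close to the 62.9% of all genes, with a median of 200 bp that was -231 bp after scaling, and 1 of 15 was called, Mxi1, a MAX partner needed for chromatin condensation, with 3395 and 5896 bp.

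Myeloid effector and receptor genes went the other way. Of 33 with a peak, 24 were shorter by any amount, against 36.2% of all genes, with a median of -853 bp. The rule called 9 shorter and 1 longer, against 3.81% and 6.91% of all genes. Those called shorter included the phagocyte oxidase subunit genes Cyba, at 5206 and 1853 bp, and Ncf1, at 3359 and 2153 bp. Ncf4, of the same complex, was not called, with 7813 and 9510 bp. Mpo, which encodes myeloperoxidase, had 1859 bp and Ltf, lactoferrin, 1406 bp in the untreated list, and neither had a treated peak near its ends. Laptm5, a lysosomal protein gene of blood cells, had 9092 and 5848 bp, and its untreated peak of 14253 bp overlapped 3 separate treated peaks. Fcgr3, an Fc receptor gene, had 3619 and 1357 bp, Csf1r, the macrophage growth factor receptor gene, 3306 and 1803 bp, and Lyz2, lysozyme, 2609 and 1456 bp. The exception called longer was Csf2ra, with 2209 and 3406 bp. H3K27ac was shorter by the same rule at 6 of the 33 and longer at 1, against 5.16% and 4.98% of all genes with H3K27ac. In windows of 2 kb only 1 gene of the list was called shorter, and at 2 times 4 were. Of 40 genes on the list 7 had no peak near either end in either list, Cybb, S100a8, S100a9, Tlr4, Cd33, Trem1 and Ptprc. Other defining leukocyte and monocyte genes had peaks, with Itgb2 at 14631 and 12376 bp, Cd68 at 7965 and 8901 bp, Cd14 at 3941 and 3891 bp and Itgam at 953 and 0 bp.

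Of 12 myeloid transcription factors with a peak, 8 were shorter, and only Irf5 was called, with 6609 and 4153 bp. Cebpb, a granulocyte and macrophage factor, had 5459 and 7756 bp. Among 14 ETS factors, only Etv3, a repressor, was called, shorter with 5038 and 3009 bp but not at 2 times, and Fli1 had 8160 and 11404 bp. Over all genes 3.81% were called shorter and 6.91% longer, so nothing is read from 1 call in either list. At Spi1 itself the windows held 7015 and 8412 bp. Within 20 kb of Spi1, the peak at chr2:91082449-91083551 was 1103 bp wide in the untreated list and had a treated partner of 453 bp, and an H3K27ac peak of 903 bp there had no treated partner. The widest peak at Spi1 was 2903 bp untreated and 6403 bp treated. Whether reads of the Spi1 transgene map to this locus was not tested.

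B cell genes had 5 of 15 called shorter and none longer, against 3.81% and 6.91% of all genes, and a median of -50 bp. Igll1, a surrogate light chain gene, had 3003 bp untreated and 1053 bp treated, Rag2, of the V(D)J recombinase, 6171 and 3459 bp, Fcrla 3359 and 1056 bp, and Cd79b 1870 bp and no treated peak. Cd72 had 6690 and 9791 bp and was not called. In windows of 20 kb 1 B cell gene was called shorter. Pax5, Ms4a1 and Blk, which define B cells, had no peak near either end in either list, while Cd79a had 5616 and 6010 bp and Cd22 2495 and 2445 bp. Of 14 T cell genes, Gzmb, granzyme B, was called shorter with 4962 and 2353 bp, and Tcf7 was called longer with 25 and 1178 bp, a difference that turned to -25 bp in the better 50% of each list. Of 4 untreated peaks at Gzmb, 3 had no treated partner, and its start was bare in the treated list. Of 16 megakaryocyte and platelet genes, Thbs1, thrombospondin, was called longer with 603 and 6459 bp, and Selp, P-selectin, shorter with 1010 bp and no treated peak. Selp was not called in the better 50% by score, with equal peak numbers, from 500 bp or in windows of 2 kb. Beside 6.91% longer and 3.81% shorter over all genes, nothing is read from 1 call each way in the T cell and megakaryocyte lists.

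Signalling and chromatin lists had 0 to 3 genes called longer and 0 to 2 called shorter, beside 6.91% longer and 3.81% shorter over all genes, and at these list sizes nothing is read from the counts. Of 38 genes of erythropoietin and cytokine signalling 3 were called longer. They were the MAP kinase phosphatase gene Dusp8, the feedback inhibitor gene Socs3 with 6444 and 10847 bp, and the adaptor gene Gab1 with 806 and 3195 bp. Of 33 apoptosis genes, 3 were called longer and 2 shorter. Fasl, the death ligand gene, had 2700 and 6350 bp with 0 and 2147 bp of H3K27ac, its receptor gene Fas had 453 and 1606 bp, and Bik had 5385 and 8579 bp. Fadd, the adaptor of that receptor, had 5759 and 3506 bp, and Traf1 9873 and 4514 bp. Among 21 genes for H3K4 methyltransferases and demethylases, Ncoa6 and Kdm1b were called longer, with 5197 and 7805 bp and 4543 and 6996 bp. Ncoa6 turned to -566 bp over the gene body and to -1006 bp around its start, and 0 genes of the list were called longer in the better 50% by score, over gene bodies, after scaling or at 2 times. Polycomb genes had 1 call of 17, Cbx7 with 253 and 2053 bp, and of 27 HDAC and co-repressor genes 0 were called.

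Interferon response genes were longer at 19 of 22, against 62.9% of all genes, and at 15 of 22 after scaling, against 51.4%. The rule called 2 of the 22 longer, beside 6.91% of all genes. Ifit1, which encodes an RNA-binding antiviral protein, had 3609 and 8276 bp, and Rsad2, the antiviral enzyme viperin, 3553 and 7509 bp, and both were called. Neither had H3K27ac in either list. Of 28 housekeeping genes 0 were called in either direction and the median was 759 bp, and of 21 genes of other tissues, Des was called longer and Pdgfrb shorter with a median of 0 bp. Of 36 cell cycle genes, 1 was called, Btg1, an antiproliferative gene, longer with 453 and 2006 bp. Over all genes 6.91% were called longer and 3.81% shorter, and nothing is read from the counts of the housekeeping, other tissue and cell cycle lists.

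**Figure D5:**
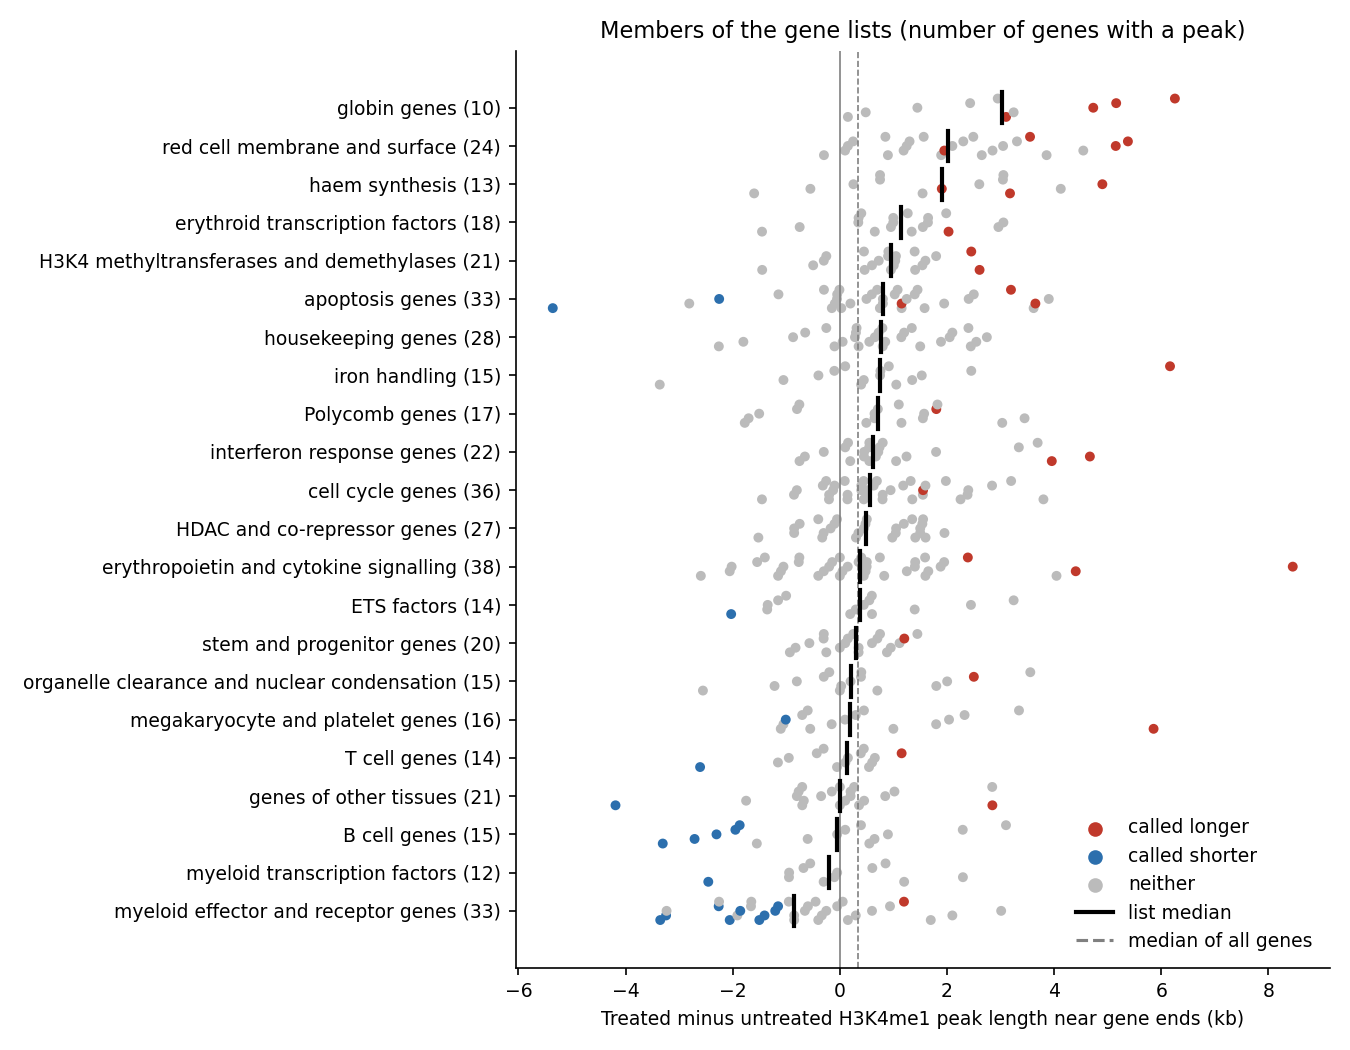
Treated minus untreated H3K4me1 peak length in kb near gene ends, 1 point per gene with a peak, for the 22 gene lists, with the number of genes in brackets, black bars at list medians and a dashed line at the median of all genes (347 bp). Globin, membrane and haem genes lie farthest to the right and myeloid effector genes farthest to the left; after scaling to equal totals the medians of the organelle clearance, megakaryocyte, T cell, cytokine signalling and other tissue lists fall below 0.

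Genes that led in either direction outside the lists were of mixed kinds. Tmem176b, which encodes a membrane protein of myeloid cells, had 8611 bp untreated and 2916 bp treated. Its untreated peak of 7703 bp overlapped treated peaks of 803 and 2803 bp, and 2653 bp of H3K27ac in its windows had no treated counterpart. Siglech, a lectin gene of plasmacytoid dendritic cells, had 6712 and 1509 bp, Neurl3, a ubiquitin ligase gene, 16991 and 11959 bp, and Kcnmb1, a potassium channel subunit gene, 7024 and 1813 bp. Pde6h, Dusp10, Snx5 and Ncbp3 were the others that were shorter. On the longer side, Agmat, agmatinase, had 5686 and 13675 bp, Tnfrsf14 6006 and 13239 bp, and Lmo1, a relative of the erythroid cofactor LMO2, 2412 and 9465 bp. Tnfrsf14 encodes the receptor of the Tnfsf14 ligand, which was itself shorter with 9112 and 3559 bp. H3K27ac in the Tnfrsf14 windows covered 3503 and 5771 bp, and in the Tnfsf14 windows 1206 and 0 bp.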

How the data were processed

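The peak lists were deposited by the authors, and per the submitters' processing notes reads were handled with bcl2fastq 2.17.1.14 and BWA on mm10. The peak caller is not given in the sources used here. For H3K4me1, the deposited lists give the authors' score per peak, used only to rank peaks, and a column below 0.01 that may be a p-value or q-value and was not used further. The score followed width (Spearman rho 0.984 in each list, across peaks). The authors' H3K27ac lists give positions and widths and stand for 2 replicates each. Positions were taken as 1-based and inclusive, and 79 untreated and 48 treated peaks on unassembled sequence were left out.

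Shared peaks overlapped by at least 1 bp. Intervals are exact Clopper-Pearson 95% and cover counting error over peaks or starts. Gene positions and starts came from RefSeq tables on GRCm38.p6, with 21887 protein-coding genes. Computation used pandas 2.3.3, numpy 2.4.6 and scipy 1.17.1 under Python 3.11.15, with matplotlib 3.10.9 for figures. Overlaps were checked with bedtools 2.31.1, and gene windows on simulated lists. The peaks and the 22 gene lists were chosen with earlier results of these data known. Genes were named by rule: the 10 largest differences in each direction without overlapping windows, per list the 2 members that differed most each way, Spi1, the 5 leading single-condition peaks and runs per condition, and up to 6 promoters; called members and joined or split peaks were named after their values were seen. Some genes that the rule takes are not reported here. Alternatives were the better 50% by score, equal peak numbers, merging within 1 kb, autosomes, stricter overlaps, other windows, scaled lengths and a threshold of 2 times. Peaks from 500 bp, starts alone and the settings for starts were added later.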

Additional observations from a re-analysis of the deposited data

How the results depend on the processing

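No paired analysis was possible because each condition had 1 H3K4me1 list, and for the same reason no replicate was left out. Depth is unknown, and peaks under 500 bp differed most between the lists.

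In the better 50% of each list by score, the ratio of covered length was 1.04, 79.3% of untreated and 87.4% of treated peaks were shared, 8.15% of treated peaks joined and 2.77% of untreated peaks were split, and 63.6% of pairs were wider. H3K27ac lay on 49.99% and 47.2% of shared and 8.19% and 8.37% of single peaks, 15.8% and 18.2% of starts were covered, and 1132 genes were called shorter. With equal peak numbers the ratios were 1 and 1.10, sharing 80.4% and 75.5%, joining 8.21%, splitting 4.50% and wider pairs 58.1%. H3K27ac then lay on 32.6% and 30.5% of shared and 0.531% of treated-only peaks. With peaks within 1 kb merged, the ratios were 0.874 and 1.04, treated sharing 80.2%, joining 6.42%, splitting 2.99%, wider pairs 56.1%, H3K27ac 31.6%, 28.2%, 0.318% and 0.106%, and covered starts 36.7% and 41.7%.

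Peaks of at least 500 bp, an alternative chosen after seeing the data, turned the ratio of peak numbers to 1.01. The ratio of length was 1.10, sharing 82.0% and 76.8%, joining 7.84%, splitting 4.32%, wider pairs 58.3%, H3K27ac 35.8%, 33.4%, 0.733% and 1.21%, and untreated starts 17.6%. On autosomes the ratios were 0.859 and 1.06 and sharing 74.7% and 79.9%. A reciprocal overlap of 50% gave 49.6% and 58.4%, an overlap of 50% of the shorter peak gave 7.77% joining and 2.38% split, and H3K27ac over 50% of the peak gave 9.01%, 7.72%, 0.261% and 0.261%. In every one of these settings more treated peaks joined than untreated peaks split where both were computed.

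The percent of genes longer by any amount was 60.8% in the better 50%, 66.7% at equal numbers, 58.2% after merging, 67.0% from 500 bp, 65.7% in windows of 2 kb, 62.1% in windows of 20 kb, 60.7% over gene bodies, 51.4% after scaling and 65.3% around starts alone, the last chosen after seeing the data. Genes called shorter numbered 374 in windows of 2 kb and 372 around starts, and at 2 times 414 were called longer and 314 shorter. Of 440 recomputed list shares, 36 fell to 0, from at most 4 genes. Another 3 moved: myeloid effector genes called shorter were 2.50% of members in windows of 2 kb and 10% at 2 times, and B cell genes 5.56% in windows of 20 kb. Among named genes called, Tcf7 turned to -25 bp in the better 50%, Ncoa6 to -566 bp over the gene body and -1006 bp around the start, and Snx5 to 150 bp around the start. The cause of these moves was not tested.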

Other observations

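The X chromosome stood apart from the autosomes in both lists. Its ratio of treated to untreated peak number was 0.702, below the range of 0.822 to 0.894 over 19 autosomes. Of its untreated peaks 46.1% were under 500 bp, against 19.1% to 26.9% on autosomes. Of the bp covered on X in either list, 50.04% were covered in both, against 62.5% to 67.4%. Peaks of at least 1 kb were shared about as often on X (92.6% untreated, 94.0% treated) as on autosomes (95.04% and 95.2%).

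Single-condition peaks also formed long runs on X. The longest run of consecutive untreated-only peaks held 69 peaks, with a median width of 353 bp, over 5562 kb (chrX:62319149-67881101), and 8304 bp of treated peaks lay between them. These were themselves a run of 18 treated-only peaks. The longest treated-only run held 34 peaks (chrX:87237899-92583001), within the span of an untreated-only run of 65 peaks. Narrow peaks of both lists thus alternated in these stretches of X. On autosomes the longest untreated-only run was on chromosome 16, where 24 untreated-only peaks covered 15422 bp of chr16:20996149-21188501, across Gm6557 and Teddm3, with 0 bp of treated peaks in the same 192 kb. The next untreated-only runs on autosomes lay in Robo2, an axon guidance receptor gene, with 20 and 19 peaks. The longest treated-only run on autosomes held 15 peaks in Sorcs1, where an untreated-only run held 19. The autosomal runs were ranked after the runs on X had been seen.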
